A study of Mus musculus with 6 samples.

Results

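The genes described here encode core proteins of the spliceosome, in MC3T3-E1 cells cultured with or without cyanidin-3-O-glucoside (C3G), a plant pigment of the anthocyanin class. They are the protein-coding mouse genes whose symbol begins with Lsm and a digit, with Snrp, or with Sf3a or Sf3b and a digit, or is Srsf followed by a number alone. The mouse annotation (GENCODE M21, build GRCm38) holds 45 such genes, and 43 of them are among the 11234 genes with values. These are 13 of 13 LSm genes, 11 of 12 Snrp genes, 9 of 9 SF3 genes and 10 of 11 SR genes. *Snrpn* and *Srsf12* were not analysed here. The rule itself reads names only, but the set was put together with earlier results of these libraries known. *Lsm12* is a gene that the study lists as higher with C3G on them, with a larger fold change than the one found here. In the study's quantitative PCR, however, *Lsm12* mRNA showed no significant difference between treated and untreated cells.

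MC3T3-E1 is an established preosteoblast line from mouse skull bone, given in the labels as strain C57BL/6 at passage 4. All cells were first kept for 24 h without serum, to bring them to the same stage of the cell cycle. The control group (3 libraries) then had complete medium for 24 h, and the C3G group (3 libraries) had complete medium with C3G at 100 μmol/L for 24 h, a dose that the labels write in um/l. The labels do not say whether the libraries of a group come from separate cultures, so the p values below measure the spread between these libraries, which may be technical. Expression was measured by stranded RNA-seq and is given as FPKM, fragments scaled to the length of the gene model and to the mapped fragments of the library, which makes levels of genes of different length comparable. RNA was taken from whole cultures, so fewer cells that express a gene and less RNA per cell cannot be told apart.

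Splicing removes introns from pre-mRNA and is carried out by small nuclear ribonucleoproteins, each built on a U snRNA. Sm proteins, encoded by most Snrp genes, form a ring around U1, U2, U4 and U5 snRNA, and the related LSm proteins form a ring on the end of U6. The SF3A and SF3B complexes belong to the U2 particle and hold it at the branch site of the intron. SR proteins bind exons through RNA recognition motifs and recruit these particles through domains rich in arginine and serine. In bone-forming cells, as in other cells, these proteins are needed throughout, and most are made at high levels.

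The libraries were not equal. Control replicate 1 had a median FPKM of 5.80 over all genes, against 6.93 to 7.40 in the other 5. Across genes, Pearson's r on the log2(FPKM + 1) scale was 0.886 to 0.939 between this library and the others and 0.968 to 0.992 among the others, as a description without a test. The summed level of 8 preosteoblast markers, all with values, was 2617 to 7706 FPKM in the controls and 2652 to 3586 FPKM with C3G. Of 5 macrophage markers only *Cd68* has values (0.144 to 1.08 FPKM in the controls, 0.720 to 1.25 FPKM with C3G). Of the adipocyte, endothelial and skeletal muscle markers 0 have values, and 3 of 4 chondrocyte markers summed to 45.4 to 108 FPKM in the controls and 37.6 to 46.6 FPKM with C3G. None of these markers passed the test described next, and their part in the results below was not tested.

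Whether C3G changed the splicing genes was asked with limma on log2(FPKM + 1), fitted over all 11234 genes. A gene was called where the two-sided p before adjustment was under 0.05 and the fold change at least 1.2, the cutoffs that the study names. On this scale the change of weakly expressed genes comes out smaller than on the FPKM scale. Of the 43 splicing genes 0 were called, where 0.65% of all genes were called. The lowest p in limma among them was 0.144 (*Lsm3*), so 0 were under 0.05 before adjustment, where 0.659% of all genes were. After Benjamini-Hochberg adjustment 0 of all genes passed, and the smallest adjusted p among the splicing genes was 0.992. Without moderation of the variances (an ordinary linear model) 1 splicing gene, *Srsf6*, had an unadjusted p under 0.05, at a fold change under 1.2, where 0.908% of all genes were under 0.05. In the log2 fold change, 22 of the 43 were above 0 and 21 below, with a median of 0.022, beside a median of 0.057 over all genes. The split stayed near even, at 21 to 24 above 0, under the alternatives that kept control replicate 1 and applied neither median centring nor the GC correction. With replicates 2 and 3 only, 8 were above 0 and 35 below (81.4% below, beside 55.0% of all genes), and after correction of each library for GC content 13 were above and 30 below (69.8%, beside 50.4% of all genes). It was 17 above and 26 below both with median centring (60.5%, beside 51.7% of all genes) and without control replicate 1 (60.5%, beside 52.8%).

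Single genes changed sides with these treatments. With replicates 2 and 3 only, 16 of the 43 had the other sign, of which 15 went below 0. They were *Lsm6*, *Lsm8*, *Lsm14a* and *Lsm14b* in the LSm family, *Snrpb2*, *Snrpc*, *Snrpd1*, *Snrpd3*, *Snrpf* and *Snrpg* in the Snrp family, *Sf3b1* and *Sf3b3* in the SF3 family and *Srsf3*, *Srsf5* and *Srsf7* in the SR family, while *Snrpd2* went above 0. After GC correction 11 did, with *Lsm2*, *Lsm8*, *Lsm14b*, *Snrpc*, *Snrpd1*, *Snrpe*, *Snrpg*, *Srsf3*, *Srsf5* and *Srsf7* below 0 and *Sf3b4* above. With median centring 5 went below 0 (*Lsm8*, *Lsm14b*, *Snrpc*, *Snrpe* and *Srsf7*).

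**Figure D1:**
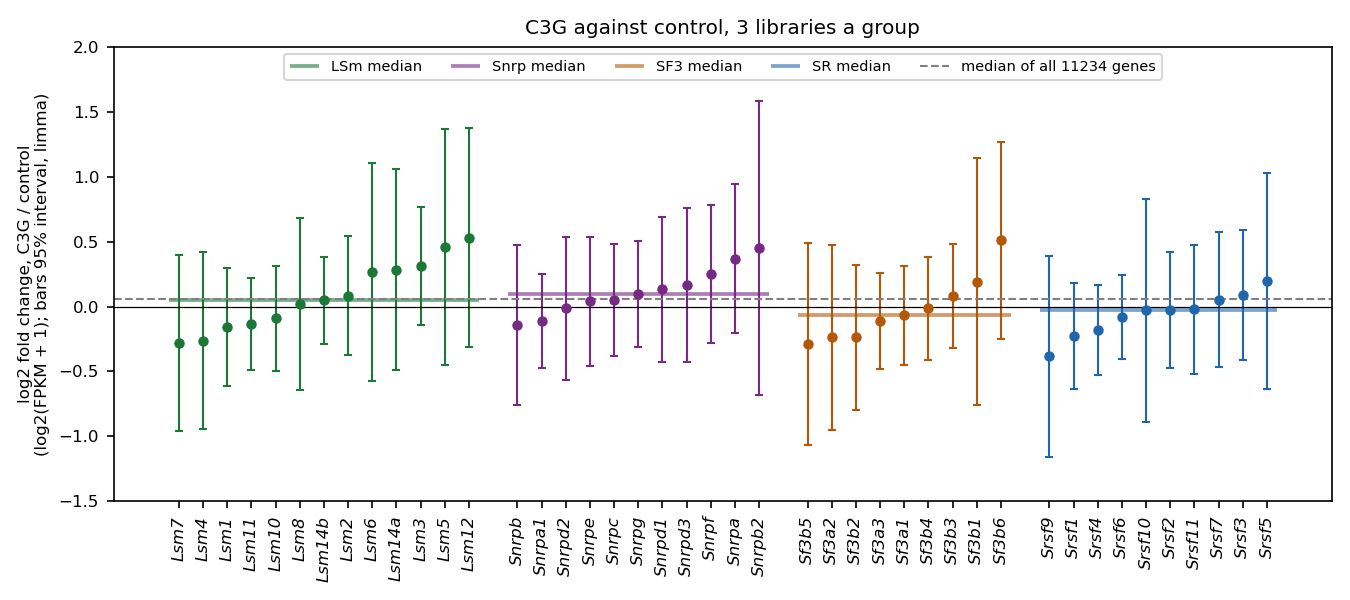
Log2 fold change of each of the 43 splicing genes, C3G against control, on the log2(FPKM + 1) scale (y axis), ordered within the 4 families (x axis). Points are limma estimates from 3 libraries a group, bars are 95% confidence intervals, coloured lines are family medians and the dashed line is the median of all genes (0.057). Every interval includes 0, and the estimates run from -0.38 (*Srsf9*) to 0.53 (*Lsm12*).

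Values are given below for replicates 1, 2 and 3 in that order. In 2 of the 43 genes the values of the groups were wholly apart, against 4.02% of all genes. In 1 of these the C3G libraries were higher (2.55% of all genes) and in 1 lower (1.48% of all genes). *Lsm3* (chromosome 6 of GRCm38, 91515928 to 91522625, plus strand), a member of the U6 ring, had 14.4, 20.1 and 21.7 FPKM in the controls and 24.8, 22.6 and 22.3 FPKM with C3G. All C3G libraries lay above all control libraries, with C3G replicate 3 and control replicate 3 close together. Its log2 fold change was 0.31 (standard error 0.191), 0.15 without control replicate 1 and 0.099 with replicates 2 and 3 only. For all 6 libraries the exact permutation test gave p = 0.1, the smallest that 3 libraries against 3 can give. The exons of *Lsm3* overlap those of *AC161456.1* on the same strand. *Srsf6* (chromosome 2, 162931528 to 162937121, plus strand), an SR protein with a pair of RNA recognition motifs, had 55.2, 57.2 and 55.6 FPKM in the controls and 51.7, 53.0 and 54.3 FPKM with C3G. All C3G libraries lay below all controls by a small margin, with a log2 fold change of -0.078 (standard error 0.136, p = 0.1 in the exact permutation test). Of the 43 genes, *Srsf6* had the smallest spread between libraries.

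The width of the intervals sets what could be seen. The 95% interval of the log2 fold change had a half-width of 0.32 in the narrowest case and 1.13 in the widest, with a median of 0.53. In 10 of the 43 genes it includes a doubling or a halving, which is thus not excluded there. In 1 gene, *Snrpb2*, the half-width was itself above 1 on the log2 scale. These intervals are of the fit with the group alone. With the replicate number added as a block, the standard error of *Snrpb2* was 0.322, against 0.476. It was smaller in the other splicing genes too, except *Snrpa* (0.258, against 0.241) and *Snrpe* (0.217, against 0.208). The count of 10 was made without the block.

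The families differed in level. The median of the mean FPKM over the 6 libraries was 44.5 in the SR family, 31.1 in the Snrp family, 25.6 in the SF3 family and 14.0 in the LSm family, against 7.20 over all genes. The order was not the same in every library. In control replicate 1 the family medians were 39.5 FPKM for the Snrp, 31.3 for the SR and 30.3 for the SF3 genes, and in C3G replicate 1 the SR (40.7) and Snrp (38.2) medians were close, whereas in the other 4 libraries the SR median was 40.0 to 44.4 FPKM and the Snrp median 26.7 to 30.4. Within families the ranges were wide, from 10.1 to 87.7 FPKM in the SR family, 12.6 to 109.8 in the Snrp family, 11.6 to 172 in the SF3 family and 1.70 to 59.98 in the LSm family. The most abundant of all 43 was *Sf3b2* and the least abundant *Lsm11*. The families overlap, and no test was made between them, since genes of a family are not replicates. No splicing gene was listed at 0 in any library.

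**Figure D2:**
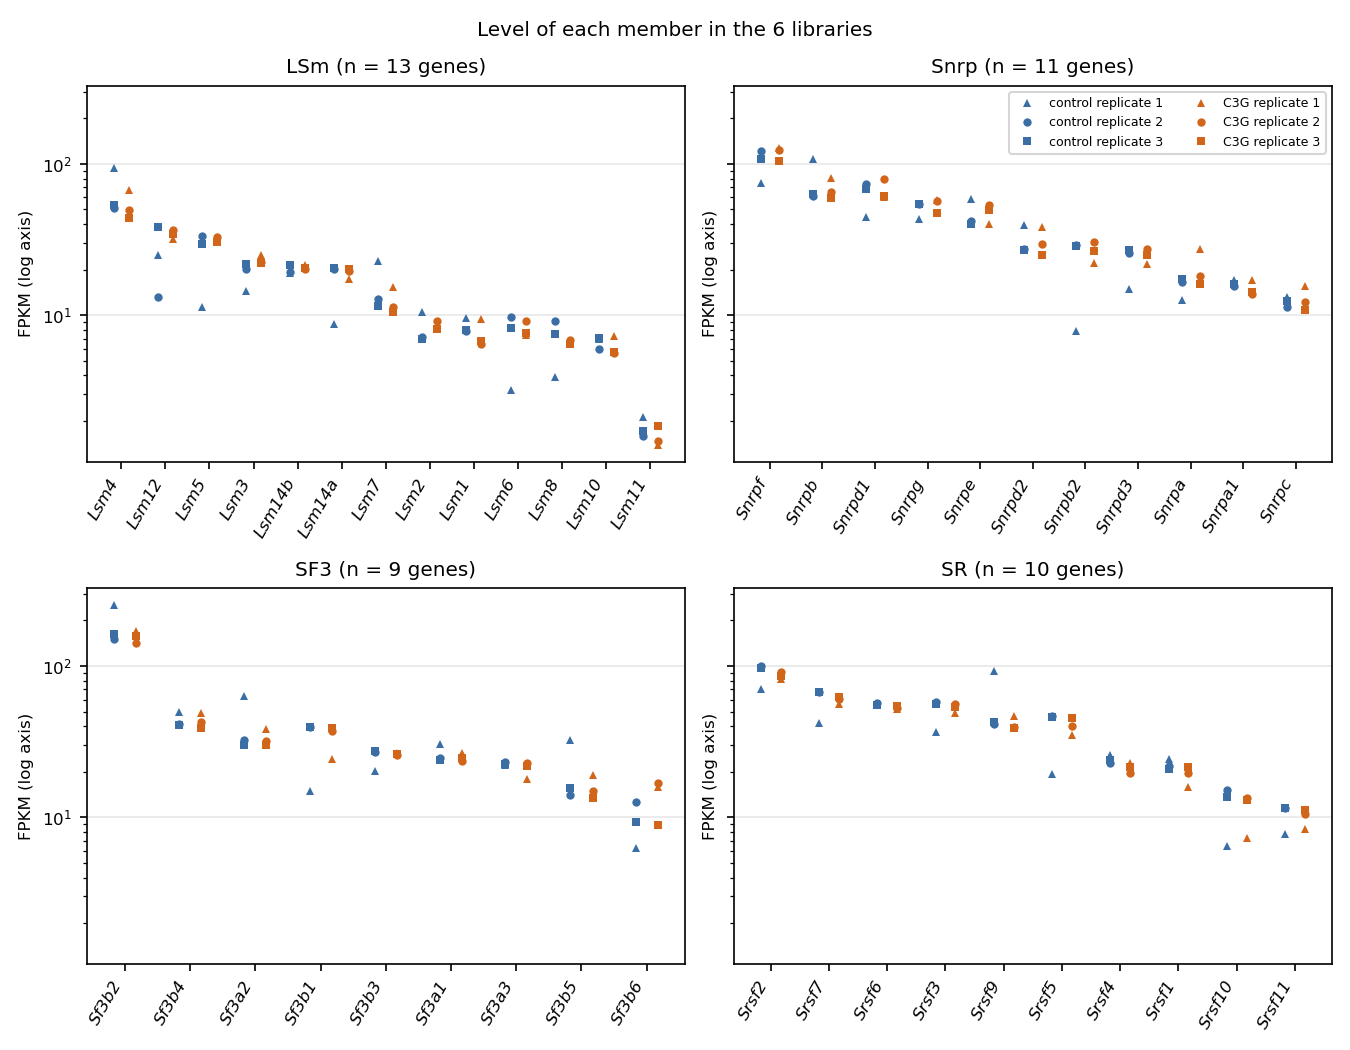
FPKM of each splicing gene (y axis, log scale) in the 6 libraries, by family, with genes ordered by mean level (x axis). Blue marks are control libraries, orange marks are C3G libraries, and the shapes give the replicate number. Most genes have overlapping groups, and the blue triangle of control replicate 1 is at one end of the range in 38 of the 43 genes, whereas *Lsm12* is lowest in control replicate 2.

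*Lsm12* (ENSMUSG00000020922.11, chromosome 11 of GRCm38, 102162497 to 102185296, minus strand) encodes an LSm protein that stands outside the rings and has been linked to ataxin-2 and to calcium release through pore channels of lysosomes. It had 25.1, 13.3 and 38.3 FPKM in the controls and 32.0, 36.7 and 34.4 FPKM with C3G. Control replicate 3 lay above every C3G library, so the groups overlap, and control replicate 2 lay far below the rest.

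Among the 13 LSm genes *Lsm12* came second in mean level, behind *Lsm4*, and first in log2 fold change, which was 0.53 (standard error 0.354, p = 0.4 in the exact permutation test). It was also the highest estimate of all 43 splicing genes, with a 95% interval from -0.31 to 1.37. Next among the LSm genes came *Lsm5* at 0.46 and *Lsm3* at 0.31, well inside that interval. In spread within groups it was second to *Lsm5* among the LSm genes. Its spread was larger than that of 84.7% of all genes.

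The estimate turns on the low control value. In control replicate 2 the level was 0.529 times that of the lower of the other 2 controls. Counting *Lsm12* itself, 21 of the 11234 genes were as far below both other controls in that library, 2 of them among the 1543 genes at the level of *Lsm12* or above. *Lsm12* was the only one of the 43 splicing genes whose lowest value was in control replicate 2. Without that library the log2 fold change was 0.14, and without control replicate 3 it was 0.87. In limma the second of these fits passed both cutoffs for *Lsm12*, as it did for 0.89% of all genes, and the first did not. Within pairs of libraries of the same number, C3G minus control was 0.34, 1.40 and -0.15 on the log2 scale for numbers 1, 2 and 3. The same 75-base stretches occur in the processed pseudogene *Gm9727* for 9.21% of its transcript, so a part of its reads may be shared.

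The LSm ring of U6 is made by *Lsm2* to *Lsm8*, 7 genes in all, and their log2 fold changes were above 0 in 5 and below 0 in 2. The count was 3 above and 4 below with replicates 2 and 3 only, where *Lsm6* was at -0.094 and *Lsm8* at -0.28, and 3 and 4 again under GC correction, where *Lsm2* and *Lsm8* turned. With median centring it was 4 and 3, and *Lsm8* also turned with quantile normalization. *Lsm5* had 11.4, 33.4 and 29.6 FPKM in the controls and 30.6, 32.7 and 30.5 FPKM with C3G. Apart from control replicate 1 the 5 values lie close together, and the log2 fold change was 0.46 with that library (standard error 0.382) and -0.0058 without it. *Lsm4* had 94.0, 51.4 and 53.2 FPKM in the controls and 67.4, 49.7 and 44.1 FPKM with C3G. *Lsm7* had 22.8, 12.9 and 11.5 FPKM in the controls and 15.4, 11.3 and 10.4 FPKM with C3G. Both were highest in control replicate 1 and second highest in C3G replicate 1. Their log2 fold changes were -0.26 (standard error 0.287) for *Lsm4* and -0.28 (standard error 0.286) for *Lsm7*, the lowest of the family, and without control replicate 1 they were 0.016 and 0.0021. Of the ring, 4 genes were lowest and 3 highest in control replicate 1 of all 6 libraries. The products of the 7 genes are found together in 1 ring.

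*Lsm1* replaces *Lsm8* in a cytoplasmic ring that promotes removal of the mRNA cap. It had 9.57, 7.87 and 7.95 FPKM in the controls and 9.40, 6.49 and 6.74 FPKM with C3G. *Lsm8* had 3.93, 9.14 and 7.52 FPKM in the controls and 6.58, 6.91 and 6.44 FPKM with C3G. Both were lower with C3G in replicates 2 and 3, and both groups overlap. *Lsm10* and *Lsm11*, which take the place of D1 and D2 in the U7 particle for histone mRNA ends, were the lowest of the family, with mean levels of 6.45 and 1.70 FPKM. *Lsm11* had 2.14, 1.60 and 1.72 FPKM in the controls and 1.40, 1.47 and 1.85 FPKM with C3G (log2 fold change -0.13, standard error 0.149, and -0.054 without control replicate 1). *Lsm14a* and *Lsm14b*, proteins of cytoplasmic processing bodies, had mean levels of 17.8 and 20.3 FPKM. *Lsm14a* was at 8.70 FPKM in control replicate 1 and between 17.3 and 20.5 FPKM in the other libraries, and *Lsm14b* was between 19.0 and 21.6 FPKM in all 6.

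In the Snrp family the 7 genes of the Sm ring had a median level of 52.2 FPKM, from 23.6 (*Snrpd3*) to 109.8 (*Snrpf*). *Snrpf* had 74.5, 122 and 107 FPKM in the controls and 128, 122.8 and 104 FPKM with C3G, a log2 fold change of 0.25 (standard error 0.224), which was 0.046 without control replicate 1. *Snrpb*, which encodes the B protein of the ring, had 107, 61.0 and 63.5 FPKM in the controls and 80.2, 65.1 and 59.2 FPKM with C3G, a log2 fold change of -0.14 (standard error 0.260), which was 0.12 without control replicate 1. As in the LSm ring, partners in the same particle parted in control replicate 1, where 4 of the 7 were lowest and 3 highest. *Snrpe* had 58.3, 41.9 and 40.3 FPKM in the controls and 40.0, 53.7 and 49.9 FPKM with C3G, with the groups apart in replicates 2 and 3 and reversed in replicate 1. It shares 17.3% of its 75-base stretches with *Snrpert*. The sharing with other annotated genes was 18.8% in *Snrpf* and 16.0% in *Snrpg*, and in *Sf3b4* of the SF3 family it was 43.2%, so these levels depend on how the authors divided shared reads. In the same way *Lsm7* shared 15.5%, *Srsf3* 13.5% and *Lsm5* 12.01%.

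The U1 proteins A and C and the U2 proteins A' and B'' make contact with the snRNA or with each other. *Snrpa* (U1 A) had 12.5, 16.5 and 17.4 FPKM in the controls and 27.6, 18.1 and 16.2 FPKM with C3G, a log2 fold change of 0.37 (standard error 0.241) with C3G replicate 1 far above the other 5 libraries. Without that library it was 0.15, and in replicates 2 and 3 alone 0.016. *Snrpc* (U1 C), the lowest of the family, had 13.3, 11.3 and 12.5 FPKM in the controls and 15.6, 12.3 and 10.8 FPKM with C3G. *Snrpb2* (U2 B'') had 7.90, 29.2 and 28.5 FPKM in the controls and 22.2, 30.4 and 26.7 FPKM with C3G. It had the highest log2 fold change of the family, 0.45 (standard error 0.476), and the largest spread of all 43 genes. Without control replicate 1 it was -0.13, and in replicates 2 and 3 alone -0.017. Its partner *Snrpa1* was between 13.9 and 17.05 FPKM in all 6 libraries.

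Among the SF3 genes, the 3 SF3A subunits had log2 fold changes below 0, of which *Sf3a1* (0.038) and *Sf3a2* (0.097) turned without control replicate 1, and the 6 SF3B subunits were 3 above and 3 below. Of the 6, 1 was above 0 with replicates 2 and 3 only, and 4 were under GC correction. *Sf3b2*, which encodes an SF3B subunit that contacts the pre-mRNA near the branch site, had 252, 152 and 162 FPKM in the controls and 170.4, 141 and 158 FPKM with C3G. Its log2 fold change was -0.24 (standard error 0.235), and -0.0095 without control replicate 1. *Sf3b1*, the scaffold of SF3B and the subunit most often mutated in myelodysplasia, had 14.9, 39.5 and 39.3 FPKM in the controls and 24.4, 37.2 and 39.0 FPKM with C3G (log2 fold change 0.19, standard error 0.401, and -0.26 without control replicate 1). Both libraries numbered 1 were low in *Sf3b1* and high in *Sf3b2*. *Sf3b6* (p14, the subunit next to the branch-point adenosine) had 6.23, 12.7 and 9.35 FPKM in the controls and 15.8, 16.8 and 8.94 FPKM with C3G. Here C3G replicates 1 and 2 lay above all controls and C3G replicate 3 within them, with a log2 fold change of 0.51 (standard error 0.319). Without C3G replicate 3 it was 0.78 and passed both cutoffs in limma, where 0.383% of all genes did. It was lower, and not called, without control replicate 1 (0.27), under GC correction (0.33) and in replicates 2 and 3 alone (0.16). *Sf3b5* had 32.3, 14.1 and 15.5 FPKM in the controls and 19.1, 14.9 and 13.3 FPKM with C3G (log2 fold change -0.29, standard error 0.326, and 0.071 without control replicate 1).

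The SR family holds *Srsf1*, the founding member of the family, which acts in constitutive and alternative splicing and in mRNA export. *Srsf1* (ENSMUSG00000018379.17, chromosome 11 of GRCm38, 88047373 to 88053755, plus strand) had 24.2, 21.7 and 20.8 FPKM in the controls and 15.7, 19.7 and 21.5 FPKM with C3G. C3G replicates 1 and 2 lay below all controls and C3G replicate 3 between them. Its log2 fold change was -0.23 (standard error 0.171, p = 0.2 in the exact permutation test), -0.11 without C3G replicate 1, -0.046 with replicates 2 and 3 only and -0.45 under GC correction (standard error 0.325). It ranked 8 of 10 in level within the family, and its spread was larger than that of 24.8% of all genes. Its exons overlap those of *Gm11508* on the opposite strand.

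*Srsf2*, the most abundant SR gene, had 70.2, 99.8 and 97.0 FPKM in the controls and 82.1, 91.0 and 86.1 FPKM with C3G (log2 fold change -0.027, standard error 0.188, and -0.19 without control replicate 1). *Srsf9* had 92.8, 41.1 and 42.5 FPKM in the controls and 46.5, 39.6 and 39.1 FPKM with C3G, the lowest log2 fold change of all 43 genes at -0.38 (standard error 0.324). Without control replicate 1 it was -0.0072, and in replicates 2 and 3 alone -0.086. *Srsf5* had 19.3, 46.8 and 46.2 FPKM in the controls and 34.8, 40.4 and 45.3 FPKM with C3G (log2 fold change 0.19, standard error 0.350, and -0.21 without control replicate 1). Control replicate 1 is the highest of the 6 in *Srsf9* and the lowest in *Srsf5* and *Srsf2*. *Srsf10*, which represses splicing when dephosphorylated, had 6.44, 15.2 and 13.6 FPKM in the controls and 7.28, 13.3 and 12.9 FPKM with C3G, low in both libraries numbered 1. *Srsf11*, the least abundant, had 7.74, 11.5 and 11.5 FPKM in the controls and 8.39, 10.5 and 11.1 FPKM with C3G. The 5 SR genes with a single RNA recognition motif (*Srsf2*, *Srsf3*, *Srsf7*, *Srsf10* and *Srsf11*) were all lowest in control replicate 1.

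Control replicate 1 stood apart in all 4 families. Of the 43 genes 21 were lowest and 17 highest in it of all 6 libraries. The same counts over all genes are not given here. As this library was apart over all genes too, the counts do not mark out the splicing genes. Its difference from the mean of control replicates 2 and 3, on the log2(FPKM + 1) scale, went from -1.75 (*Snrpb2*) to 1.13 (*Srsf9*). The family medians of this difference were -0.50 in the SR family, -0.33 in the Snrp family, 0.072 in the LSm family and 0.27 in the SF3 family, against -0.20 over all genes. The difference moved with the share of G and C in the transcript, and the part of either in the comparison of the groups was not tested beyond the fits given below. Across the 43 genes Spearman's rho was 0.638 for control replicate 1 and 0.582 for C3G replicate 1 against its own group, and over 11211 genes it was 0.748 and 0.631. These describe genes that share a library and are no test. The median GC content was 42.2% in the SR family, 45.8% in the Snrp family, 47.2% in the LSm family and 49.8% in the SF3 family, with 49.6% over all genes.

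**Figure D3:**
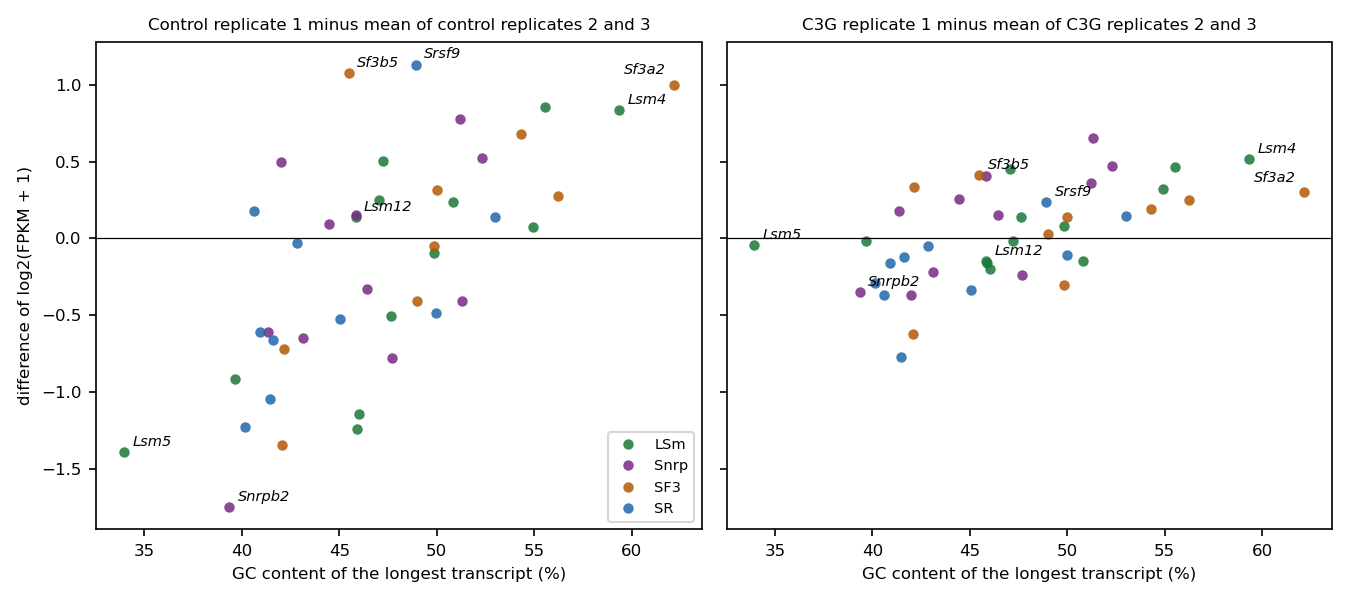
GC content of the longest transcript of each splicing gene (x axis, percent) against the difference of replicate 1 from the mean of replicates 2 and 3 of its group (y axis, log2(FPKM + 1)), for control on the left and C3G on the right. Points are genes, coloured by family. Low-GC genes such as *Lsm5* and *Snrpb2* lie below 0 and high-GC genes such as *Lsm4* and *Sf3a2* above it in both panels, over a wider range in the control.

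The first 90 coding bases of 6 genes, read 5' to 3' on the coding strand from GENCODE M21 and with every G and C in capitals, are shown for the pairs of genes highest and lowest in GC over the transcript and for *Lsm12* and *Srsf1*. *Sf3a2* (chr10:80801233-80801322, plus strand, 1 exon) is the richest in GC of the 43 over its whole transcript (62.2%), and control replicate 1 was 1.00 above the mean of the other controls on the log2 scale. *Lsm4* (chr8:70673455-70677822, plus strand, 3 exons) has 59.4% and was 0.83 above. *Lsm5* (chr6:56703366-56704668, minus strand, 2 exons) is the poorest in GC of the 43 (33.9%), with a difference of -1.39. *Snrpb2* (chr2:143064567-143065201, plus strand, 2 exons) has 39.3%, with a difference of -1.75. *Lsm12* (chr11:102185117-102185206, minus strand, 1 exon) begins with a GC-rich stretch but has 45.8% over its transcript, and its difference was 0.14. *Srsf1* (chr11:88047839-88047928, plus strand, 1 exon) has 40.6% over its transcript, with a difference of 0.18. All 6 stretches are coding exon sequence and hold no UTR.
*Sf3a2*: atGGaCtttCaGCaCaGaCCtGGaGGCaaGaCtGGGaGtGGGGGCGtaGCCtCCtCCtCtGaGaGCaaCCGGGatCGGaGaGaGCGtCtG
*Lsm4*: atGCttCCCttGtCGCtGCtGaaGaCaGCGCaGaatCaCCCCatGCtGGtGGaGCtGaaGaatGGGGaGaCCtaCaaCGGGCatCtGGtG
*Lsm5*: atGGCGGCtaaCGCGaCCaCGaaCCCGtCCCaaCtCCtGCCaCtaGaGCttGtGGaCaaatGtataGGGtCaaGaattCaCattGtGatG
*Snrpb2*: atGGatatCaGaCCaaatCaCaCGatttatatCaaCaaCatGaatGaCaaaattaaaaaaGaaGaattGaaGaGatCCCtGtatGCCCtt
*Lsm12*: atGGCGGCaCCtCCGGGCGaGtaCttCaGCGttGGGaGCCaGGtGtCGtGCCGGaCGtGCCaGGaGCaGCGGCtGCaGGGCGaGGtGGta
*Srsf1*: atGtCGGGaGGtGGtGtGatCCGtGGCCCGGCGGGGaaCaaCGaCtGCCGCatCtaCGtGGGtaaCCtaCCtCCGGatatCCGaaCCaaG
In these stretches the GC content was 61.1% in *Sf3a2*, 56.7% in *Lsm4*, 51.1% in *Lsm5*, 32.2% in *Snrpb2*, 68.9% in *Lsm12* and 61.1% in *Srsf1*. The start of the coding sequence thus did not follow the whole transcript in *Lsm5*, *Lsm12* and *Srsf1*, and the GC content used in the fits is that of the transcript.

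With control replicate 1 and the GC content in view, the families were compared in 3 ways. With all 6 libraries the median log2 fold change was 0.048 in the LSm family, 0.10 in the Snrp family, -0.068 in the SF3 family and -0.028 in the SR family. Values below 0 were found in 5 of 13, 3 of 11, 6 of 9 and 7 of 10 genes in that order, and in 38.0% of all genes. Signs so close to 0 were not fixed: with median centring of the libraries the medians were -0.018, 0.034, -0.13 and -0.093, and the SR median was 0.064 without control replicate 2. After each library was corrected for its dependence on GC content the medians were -0.023, -0.033, -0.022 and -0.17. Below 0 were 10 of 10 SR genes, where 50.4% of all genes were. In the other families it was 8 of 13 LSm, 7 of 11 Snrp and 5 of 9 SF3 genes. Under the correction *Srsf1* was at -0.45, *Srsf6* at -0.25 and *Srsf9* at -0.46. Their standard errors grew, from 0.171, 0.136 and 0.324 to 0.325, 0.241 and 0.367 in that order. In the other SR genes the standard error became smaller. With replicates 2 and 3 only the family medians were -0.031, -0.012, -0.028 and -0.10. Again 10 of 10 SR genes were below 0, where 55.0% of all genes were. The other families leaned the same way in those replicates, with 9 of 13 LSm, 8 of 11 Snrp and 8 of 9 SF3 genes below 0, as did 15 of 17 SR protein kinases and SR-related genes, 23 of 26 hnRNP genes, 22 of 26 genes of the PRP19 complex and catalytic steps, 13 of 14 of the branch site and 3' splice site and 21 of 30 of the tri-snRNP and other U particles. The share was 9 of 16 in the SMN complex list, 3 of 9 in the decapping partners and 2 of 5 in the partners of *Lsm12*. Under each of these, 0 SR genes were called, and the difference between the families was not tested.

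The SR genes lay almost all on 1 side when libraries numbered 2, or numbered 3, were set side by side. C3G minus control was below 0 in 4 of 10 SR genes for number 1, 10 of 10 for number 2 and 9 of 10 for number 3. The shares over all genes were 36.2%, 53.4% and 53.9%. The family medians were 0.13, -0.13 and -0.070 on the log2 scale, so the differences were small where they shared a sign. In replicates 2 and 3 both C3G libraries lay below both controls in 9 of 10 SR genes, where 14.3% of all genes did so, in 6 of 13 LSm genes, 2 of 9 SF3 genes and 1 of 11 Snrp genes. The same held in 5 of 17 SR protein kinases and SR-related genes, 7 of 26 hnRNP genes, 9 of 30 proteins of the tri-snRNP and other U particles, 12 of 26 of the PRP19 complex and catalytic steps and 8 of 14 factors of the branch site and 3' splice site. It held in 3 of 16 genes of the SMN complex list, 0 of 9 decapping partners and 0 of 5 partners of *Lsm12*. For *Srsf7*, control replicates 2 and 3 were at 67.0 and 67.1 FPKM and the C3G replicates at 60.1 and 62.5 FPKM, whereas control and C3G replicate 1 were at 42.1 and 56.3 FPKM. *Srsf4* was the SR gene furthest below in these replicates, at -0.18, with 25.8, 22.7 and 24.02 FPKM in the 3 controls and 22.8, 19.6 and 21.3 FPKM in the 3 C3G libraries. *Srsf1* was the exception, with C3G replicate 3 above control replicate 3. *Srsf7* and *Srsf4* were picked after their values were seen.

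**Figure D4:**
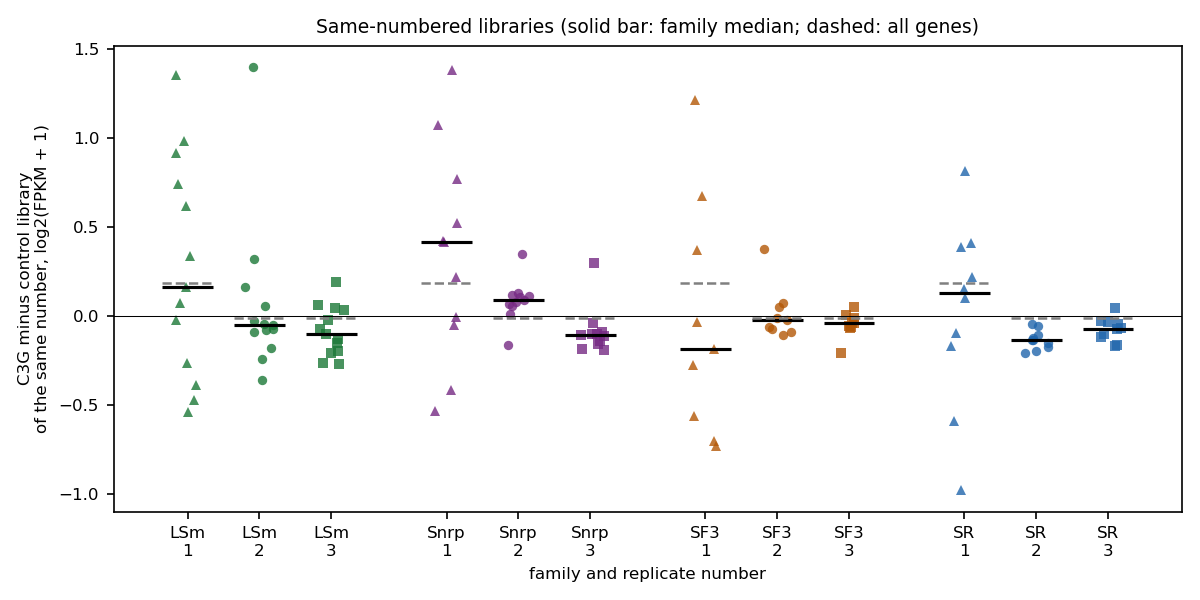
C3G minus control within libraries of the same replicate number (y axis, difference of log2(FPKM + 1)), for each of the 4 families and numbers 1 to 3 (x axis). Points are genes, solid bars are family medians and dashed bars are medians of all genes. For number 1 the genes spread from -0.98 to 1.38, while SR genes sit close below 0 for number 2 (10 of 10) and number 3 (9 of 10).

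The Snrp genes changed sides between the numbers. C3G minus control was below 0 in 4 of 11 for number 1, 1 of 11 for number 2 and 10 of 11 for number 3, with medians of 0.42, 0.092 and -0.10. The LSm genes were below 0 in 5, 9 and 9 of 13 and the SF3 genes in 6, 6 and 7 of 9. Over the whole set 9 of 43 genes were below 0 in all 3 numbers, beside 11.6% of all genes. With replicates 2 and 3 only, *Snrpe* was the 1 splicing gene called, at 0.33, where 1.7% of all genes were called. *Lsm1* was called at -0.27 when the GC correction was joined with the replicate number as a block, where 2.19% of all genes were called. *Snrpe*, *Lsm1*, *Snrpa* and the further splicing genes given with their values for completeness were named after these were seen.

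The neighbours of these proteins in splicing and mRNA turnover were read from 8 lists of 144 genes, of which 143 have values and *Srpk3* was not analysed here. In these, 0 were called, beside 0.65% of all genes, and 0 were under 0.05 in limma before adjustment. Medians of the log2 fold change were -0.018 over 30 proteins of the tri-snRNP and other U particles, -0.039 over 14 factors of the branch site and 3' splice site, and -0.074 over 26 proteins of the PRP19 complex and the catalytic steps. They were 0.012 over 17 SR protein kinases and SR-related proteins, 0.032 over 26 hnRNP proteins and 0.13 over 16 proteins of Sm ring assembly (the SMN complex). Under GC correction the tri-snRNP, branch site and PRP19 lists were at -0.11, -0.15 and -0.13. The tri-snRNP list was at 0.037 without control replicate 3, and the branch site list at 0.037 without control replicate 2. The PRP19 list was at -0.0033 without C3G replicate 1. The 9 decapping partners of the cytoplasmic LSm ring had the median furthest from that of all genes, 0.27, with 8 of 9 above 0, where 62.0% of all genes were. Their median was 0.014 with replicates 2 and 3 only, where 6 of 9 were above 0, beside 5059 of all 11234 genes. Under GC correction it was 0.098, again with 8 of 9 above 0, beside 5575 of all genes. Without control replicate 1 it was 0.024, with 5 of 9 above 0, beside 5297 of all genes. The median of the SMN complex list went to -0.028 and 0.017, that of the hnRNP list to -0.047 and -0.12 and that of the SR kinases and related proteins to -0.065 and -0.097 in the first 2 of these fits. Without control replicate 2 the medians of these lists were 0.21, 0.18 and 0.14 in that order. Without C3G replicate 1 they were 0.13, 0.15 and 0.14.

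Among these decapping genes *Ddx6*, an RNA helicase of processing bodies, had 5.24, 31.4 and 29.4 FPKM in the controls and 31.2, 35.9 and 30.6 FPKM with C3G. It was low in control replicate 1 alone. *Edc3*, an enhancer of decapping, had 2.09, 3.43 and 2.93 FPKM in the controls and 3.74, 3.46 and 3.63 FPKM with C3G, and its groups did not overlap (log2 fold change 0.29, standard error 0.179, and 0.12 with replicates 2 and 3 only). Over the 8 lists the groups did not overlap in 6 genes, beside 4.02% of all genes. Of these, *Edc3*, *Atxn2l* and *Tpcn1* were higher with C3G, and *Prpf31*, *Sart3* and *U2af2* lower. *U2af2*, which reads the polypyrimidine tract before the 3' splice site, had 63.8, 52.5 and 48.3 FPKM in the controls and 46.5, 43.1 and 45.8 FPKM with C3G (log2 fold change -0.27, standard error 0.163, and -0.18 with replicates 2 and 3 only). Genes of this paragraph other than the partners of *Lsm12* were picked after their values were seen.

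The 5 partners of *Lsm12* were the ataxin-2 genes *Atxn2* and *Atxn2l*, the lysosomal pore channels *Tpcn1* and *Tpcn2*, and *Jpt2*, which binds the calcium messenger NAADP. *Atxn2l* had 32.7, 33.5 and 30.3 FPKM in the controls and 34.2, 36.9 and 34.5 FPKM with C3G (log2 fold change 0.13, standard error 0.139). *Tpcn1* had 7.79, 7.96 and 7.36 FPKM in the controls and 8.15, 8.32 and 8.21 FPKM with C3G (log2 fold change 0.085, standard error 0.141). In both the groups did not overlap, by a small margin, and neither was called. *Atxn2* was between 4.60 and 5.17 FPKM in all 6 libraries. *Tpcn2* was between 2.62 and 4.21 FPKM, and *Jpt2* was at 28.9 FPKM in control replicate 1 and between 48.5 and 61.2 FPKM in the others. None of the 5 had the low value in control replicate 2 that *Lsm12* had.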

How the data were processed

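RNA of 6 samples (3 control, 3 C3G) was sequenced from stranded libraries. The authors used Ballgown for the deposited FPKM values, 1 per gene in each library. The submitters' processing notes name cutadapt, HISAT2 2.1.0, StringTie, STAR 2.5.2b and hg19, whereas the identifiers are of mouse genes, and which build served these files is not settled here. How strand and shared reads were treated is not given in the sources used here. The reads behind an FPKM are unknown, so no counting error can be given.

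Groups and replicate numbers come from the labels. Of 11234 identifiers 11211 matched a symbol and 11186 are protein coding. Every gene has a mean of at least 0.5 FPKM in 1 group. Values were fitted as log2(FPKM + 1) with limma 3.58.1 (lmFit, eBayes with trend) in R 4.3.3. The model had the group alone, tests were two-sided, and Benjamini-Hochberg adjustment ran over the whole table. Single genes also had a two-sided exact permutation test. Libraries that carry 1 number deviated jointly from their group means (correlation across genes 0.653, 0.580 and 0.440, against -0.640 to 0.307 between different numbers). The numbers may thus pair the libraries, but the labels state no pairing, and the fit with this block is an alternative. Standard errors and intervals given without mention of the block are of the fit without it. The GC correction subtracts a natural spline with 5 degrees of freedom from each library, and 23 genes without a GC value stayed as they were. GC content and shared 75-base stretches are those of the longest transcript in GENCODE M21. Python 3.11.15, pandas 2.3.3, numpy 2.4.6 and scipy 1.17.1 did the rest. Fits were tested on simulated data.

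The splicing genes, the lists and the alternatives were chosen with earlier results of these data known. Genes named by rule are *Lsm12*, *Srsf1*, those with the extreme log2 fold changes, levels and the largest spread of each family, those whose groups do not overlap, and the partners of *Lsm12*. The 16 alternatives are a pseudocount of 0.1, a mean of at least 1 FPKM, an ordinary linear model, eBayes without trend, median centring, quantile normalization, the replicate block, the GC correction without and with it, replicates 2 and 3 only, and each library left out.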

Additional observations from a re-analysis of the deposited data

How the results depend on the processing

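Depth is unknown, 3 libraries a group give intervals as wide as stated, and control replicate 1 touches most genes. Under 16 alternatives the genes called over all genes numbered 48 with the ordinary linear model, 169 with the replicate block, 135 with the GC correction, 246 with both, 191 with replicates 2 and 3 only and 40 to 144 with a library left out, against 73. Splicing genes called numbered 1 with the GC correction and the replicate block (*Lsm1*), 1 with replicates 2 and 3 only (*Snrpe*) and 0 to 1 with a library left out (*Lsm12* at 0.87 without control replicate 3, *Sf3b6* at 0.78 without C3G replicate 3), and 0 in the other alternatives, the replicate block alone included. Of the 143 listed partner genes, 1 was called with the replicate block and 1 when the GC correction was joined to it (*Txnl4a* in both), 1 with replicates 2 and 3 only (*Snrnp48*) and 0 to 2 with a library left out (*Txnl4a* and *Gemin8* without control replicate 3, *Snrnp48* without control replicate 1). The choice of these 3 partner genes followed a look at their values. The block changed no other call named here.

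The SF3 median was -0.13 with median centring and -0.12 to 0.038 with a library left out. The SR median went from -0.17 without control replicate 1 to 0.064 without control replicate 2, the LSm median from -0.0058 to 0.10 and the Snrp median from 0.046 to 0.16. *Lsm12* stayed above 0, at 0.14 to 0.87. Of the 43 splicing genes, 16 changed sign with replicates 2 and 3 only, among them *Snrpb2* (-0.017), *Snrpf* (-0.012), *Snrpc* (-0.036), *Sf3b1* (-0.049) and *Srsf5* (-0.12), and of the *Lsm12* partners *Atxn2* (0.065) and *Jpt2* (-0.045) did. Under GC correction, alone or joined with the block, 11 did, *Snrpc* (-0.076) and *Srsf5* (-0.036) among them, and with median centring 5, *Snrpc* (-0.016) among them. With a library left out, the range crossed 0 in 27 of the 43 splicing genes. Of genes named by rule it was -0.46 to 0.0021 in *Lsm7*, -0.43 to 0.016 in *Lsm4*, -0.0058 to 0.73 in *Lsm5*, -0.13 to 0.75 in *Snrpb2*, -0.28 to 0.12 in *Snrpb* and -0.087 to 0.16 in *Snrpc*. It was -0.50 to 0.071 in *Sf3b5*, -0.26 to 0.42 in *Sf3b1*, -0.21 to 0.40 in *Srsf5*, -0.19 to 0.064 in *Srsf2*, -0.20 to 0.089 in *Srsf11* and -0.38 to 0.23 in *Srsf10*. The others were *Lsm2*, *Lsm6*, *Lsm8*, *Lsm14a*, *Snrpd1*, *Snrpd2*, *Snrpd3*, *Snrpe*, *Snrpg*, *Sf3a1*, *Sf3a2*, *Sf3b3*, *Sf3b4*, *Srsf3* and *Srsf7*, between -0.43 (*Sf3a2*) and 0.52 (*Lsm6*). Among the *Lsm12* partners it was -0.045 to 0.039 in *Atxn2*, -0.25 to 0.016 in *Tpcn2* and -0.12 to 0.41 in *Jpt2*. Without control replicate 1, 21 of the 43 splicing genes had the other sign. The cause was not tested.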
